A study of Bos taurus with 42 samples.

Results

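Expression of *MYOG* (ENSBTAG00000006030), *MYOD1* (ENSBTAG00000002216), *MYF5* (ENSBTAG00000026972), *MEF2D* (ENSBTAG00000046545), and *CDKN1A* (ENSBTAG00000008353) was examined in the cerebrum, liver, and hind limb muscle of bovine fetuses. These 5 genes, of the 22664 in the count table, are regulators of muscle formation, taken by name through the study's supplementary tables, which pair their Ensembl identifiers with these symbols. No expression value enters this rule. All 5 passed the filter on low counts in muscle and over the 3 tissues together, whereas in the other 2 tissues *MEF2D* and *CDKN1A* passed it and *MYOG*, *MYOD1*, and *MYF5* did not.

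*MYF5*, *MYOD1*, and *MYOG* encode basic helix-loop-helix (bHLH) transcription factors that bind E-box sequences as partners of the E proteins. In the embryo, Myf5 and MyoD commit precursor cells of the somite and limb bud to the muscle lineage, and myogenin drives committed myoblasts into terminal differentiation, when they fuse into myotubes and turn on the contractile apparatus. MEF2D is a MADS-box factor, made in many tissues, that acts with the myogenic factors at muscle promoters. *CDKN1A* encodes a cyclin-dependent kinase inhibitor that is known as a gene turned on when myoblasts leave the cell cycle.

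The 42 libraries came from 14 fetuses at day 50 of gestation, 1 library per tissue and fetus. The dams were Angus-cross heifers that shared a sire for their pregnancies, and each fetus is a separate animal. Dams of the control group (CON, 7 fetuses, 6 males and 1 female) were fed 100% of the requirement for a set daily gain, and dams of the restricted group (RES, 7 fetuses, 5 males and 2 females) were given 60% of the CON ration from breeding on. The labels call the muscle samples muscle by source and left hind limb by tissue, so cells of the limb other than muscle may be among them, and they name no sequencing batch. Library totals were 4145093 to 7576159 counts in the cerebrum (median 5322765.5), 6658218 to 12741299 in the liver (median 8130072.5), and 5384018 to 7592149 in muscle (median 6644024.5).

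Markers of the 3 tissues were high where the labels place them. *MYH3*, the embryonic myosin heavy chain, averaged 2288 CPM (counts relative to the normalized library total) in muscle and 9.19 in the liver, and was 72.1 CPM in the cerebrum of RES 1 and 1.09 to 8.85 CPM in the other 13 cerebrum libraries. The cortical neuron factor *NEUROD6* averaged 133 CPM in the cerebrum and 0.193 in muscle, and albumin (*ALB*) averaged 24438 CPM in the liver and 5.04 in muscle. The cerebrum library of RES fetus 1 stood apart from the other 13. Its summed level of 18 contractile and fibre genes was 414 CPM, against 8.24 to 51.98 CPM in the others, with 16 of the 18 genes above all of them, *ACTC1* most abundant at 111 CPM, and none at 0 counts. All 3 tendon markers (sum 54.9 CPM, highest of the others 2.58), both epidermis markers (49.8 CPM, 6.80), and both smooth muscle markers (51.2 CPM, 5.26) were above the other 13 too. So were all 3 hepatocyte markers (5798 CPM, 1129), a sum made up mostly of *TTR* (5632 CPM, 1102). All 3 limb mesenchyme, all 3 erythroid, and both Schwann cell markers, *TEK* of the endothelium, and 4 of 5 p53 pathway genes were above as well. Of 3 cortex markers and of 3 proliferation genes, 0 were above. The share of all genes that were highest in this library was not counted. Its neuron markers summed to 2086 CPM, below the others (2993 to 9290 CPM), with 3 of the 5 genes below all of them. Its 3 cortex markers, at 131 CPM, lay within the range of the others (51.4 to 563 CPM). Of its counts, 14.7% fell on 12 genes of the mitochondrial genome, against 2.73% to 6.89% in the others. Values without RES fetus 1 are given beside those that rest on this library.

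The first question was where the 5 genes are expressed. *MYOG*, *MYOD1*, and *MYF5* were close to confined to muscle, *CDKN1A* was found in all 3 tissues but mostly in muscle, and *MEF2D* was spread over the 3 tissues with a modest excess in muscle. In an edgeR fit over the 42 libraries with Benjamini-Hochberg adjustment, all 5 were higher in muscle than in the cerebrum and higher than in the liver. *MYOG*, *MYOD1*, and *MYF5* passed the filter for this fit through muscle alone. Their calls and p-values against the other tissues, here and below, describe these genes and support nothing further. Of all 15972 genes tested, 32.2% were called higher in muscle than in the cerebrum, 45.5% higher than in the liver, and 16.7% higher than in both.

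Myogenin was the clearest case. In muscle the counts of *MYOG* were 478 to 1511 in CON (median 862) and 277 to 2580 in RES (median 933). The cerebrum held 0 counts of *MYOG* in 9 of 14 libraries, 1 in CON 73 and RES 6, 2 in CON 46, 3 in RES 55, and 49 in RES 1, and the liver held 1 count each in CON 73, RES 6, and RES 33 and 0 in the other 11. The lowest muscle level was 30.7 CPM in RES 25 and the highest elsewhere was 6.17 CPM in the cerebrum of RES 1. Such levels, here and below, describe the gene, since how many of all genes have muscle libraries apart in this way was not counted. The fitted log2 difference was 7.97 ± 0.51 (SE) against the cerebrum (adjusted p = 2.65e-17), and 10.22 without RES fetus 1. Against the liver it was 11.10 ± 0.68 (adjusted p = 1.00e-18). With counts and normalized library totals each summed over a tissue, *MYOG* was 221-fold higher in muscle than in the cerebrum (95% counting interval 170 to 293), or 1457-fold (707 to 3623) without RES fetus 1, and 3109-fold (1064 to 15078) higher than in the liver, where the ratio rests on 3 counts. The liver ratio depends on the scaling, since with raw library totals it was 6688-fold.

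*MYOD1* had 139 to 394 counts in the muscle libraries of CON (median 195) and 82 to 617 in those of RES (median 277). No count of *MYOD1* was found in any liver library, which allows up to 3 counts over the 14 libraries, so its pooled level in muscle was at least 789-fold higher with normalized library totals (at least 1696-fold with raw totals). In the cerebrum, RES 1 and RES 6 held 3 counts each and RES 52 held 1, and the other 11 libraries held 0. The fitted log2 difference of muscle from the cerebrum was 8.52 ± 0.45 (adjusted p = 1.71e-16), and 8.89 without RES fetus 1. The lowest muscle level was 9.10 CPM in RES 25 and the highest elsewhere was 0.505 CPM in the cerebrum of RES 6.

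*MYF5*, the earliest of the myogenic factors to appear in the embryo, had 116 to 292 counts in muscle in CON (median 174) and 49 to 390 in RES (median 178). The cerebrum held 7 counts in RES 1, 1 each in RES 6 and RES 55, and 0 in the other 11 libraries, and the liver held 9 counts spread over 6 libraries. The fitted log2 difference was 7.70 ± 0.46 against the cerebrum (adjusted p = 1.78e-18, and 9.05 without RES fetus 1) and 7.31 ± 0.46 against the liver (adjusted p = 1.69e-18). Pooled over libraries with normalized totals, it was 241-fold higher in muscle than in the cerebrum (127 to 527), 941-fold (260.3 to 7777, on 2 counts) without RES fetus 1, and 181-fold (95.2 to 396) higher than in the liver. With raw totals the ratio to the liver was 389-fold.

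*CDKN1A* had 378 to 1171 counts in muscle in CON (median 608) and 203 to 2077 in RES (median 673). In the cerebrum it had 6 to 63 counts in CON and 13 to 148 in RES, where RES 1 held the 148 and the next library 25. The liver held 5 to 35 counts. The lowest muscle value was 22.5 CPM and the highest elsewhere was 18.6 CPM in the cerebrum of RES 1. The fitted log2 difference of muscle was 4.31 ± 0.34 against the cerebrum (adjusted p = 8.00e-15, and 4.53 without RES fetus 1) and 4.62 ± 0.35 against the liver (adjusted p = 7.39e-16). Pooled with normalized totals, *CDKN1A* was 19.1-fold higher than in the cerebrum (17.5 to 21.0), 22.3-fold without RES fetus 1, and 25.5-fold higher than in the liver (22.6 to 28.9), or 54.9-fold with raw totals.

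*MEF2D* had 138 to 232 counts in muscle in CON (median 191) and 129 to 256 in RES (median 213), 39 to 108 in the cerebrum, and 49 to 94 in the liver. Muscle spanned 14.3 to 29.7 CPM, the liver 9.86 to 20.3 CPM, and the cerebrum 5.54 to 13.9 CPM, so the liver overlapped both. The log2 difference of muscle was 1.13 ± 0.13 from the cerebrum (adjusted p = 5.80e-10, and 1.10 without RES fetus 1) and 0.75 ± 0.13 from the liver (adjusted p = 1.81e-06). Pooled with normalized totals it was 2.16-fold higher than in the cerebrum (2.01 to 2.32) and 1.74-fold higher than in the liver (1.61 to 1.87), or 3.73-fold with raw totals. In tissue homogenates such as these, fewer cells of a type and less RNA per cell cannot be told apart.

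**Figure D1:**
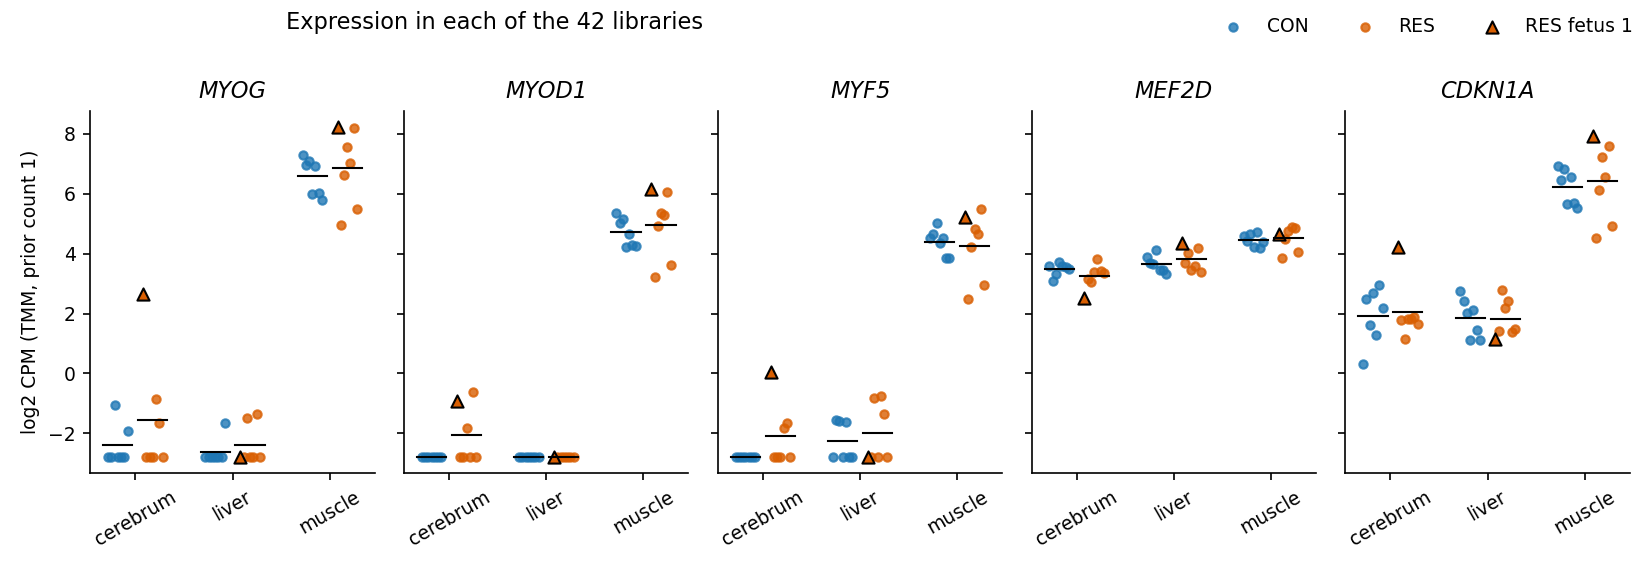
Expression of the 5 genes in each of the 42 libraries, as log2 CPM with normalization factors computed over all libraries and a prior count of 1, by tissue and maternal diet. Points are libraries, triangles are those of RES fetus 1, horizontal lines are means of 7 libraries, and the lowest level drawn stands for 0 counts. *MYOG*, *MYOD1*, and *MYF5* lie far above the other tissues in muscle, and RES 1 is the highest cerebrum library for *MYOG*, *MYF5*, and *CDKN1A*.

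Between the cerebrum and the liver the order of the 5 genes was less firm. Over all tested genes, 83.6% were called different between these tissues, 38.5% higher and 45.2% lower in the liver. *MEF2D* was higher in the liver by 0.37 ± 0.13 on the log2 scale (adjusted p = 0.0104), but this direction depends on the scaling, since with raw totals the pooled excess of muscle was larger over the liver (3.73-fold) than over the cerebrum (2.16-fold). *CDKN1A* did not pass the test (-0.30 ± 0.34, adjusted p = 0.403). *MYOG* was lower in the liver by a log2 difference of -3.13 ± 1.11 (adjusted p = 0.00920), but without RES fetus 1 the difference was -0.64 (adjusted p = 0.582). *MYOD1* passed narrowly (-2.26 ± 1.03, adjusted p = 0.0440), with -1.78 (adjusted p = 0.119) without RES fetus 1 and -2.34 (adjusted p = 0.0561) without CON 23. No liver library held a count of *MYOD1*, so the size of these differences is not measured. *MYF5* did not pass (0.40 ± 0.78, adjusted p = 0.639) but was called higher in the liver without RES fetus 1 (1.88, adjusted p = 0.0346). For these 3 genes the values rest on a handful of counts.

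The genes around the 5 regulators in the myogenic pathway were followed through lists chosen for their roles. Many of their genes entered the comparison of tissues only because they passed the filter on low counts through muscle, so the counts describe the lists and support nothing further. All 18 contractile and fibre genes were called higher in muscle than in the cerebrum and the liver, with median log2 differences of 7.48 and 8.50, beside -0.06 and 0.21 over all tested genes, although only 11 of them passed the filter within the cerebrum and 6 within the liver. Among them *ACTC1*, the cardiac actin that fetal skeletal muscle also makes, averaged 1859 CPM in muscle. Of 9 genes of myoblast fusion and the motor endplate, 9 were called higher than in the cerebrum and 8 higher than in the liver (medians 6.04 and 6.89), and 5 and 3 of them passed the filter within those tissues. The acetylcholine receptor subunits *CHRNG* and *CHRNA1* averaged 307 and 166 CPM in muscle.

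Upstream of the myogenic factors, 6 of 7 regulators of limb muscle precursors were called higher in muscle than in the cerebrum and 7 of 7 higher than in the liver (medians 3.41 and 7.59), while 6 passed the filter within the cerebrum and 2 within the liver. They included *MEOX2*, a homeobox gene of the somite and limb bud, with a mean of 169 CPM. *PAX7*, the marker of myogenic progenitors, averaged 3.54 CPM in muscle and 2.97 CPM in the cerebrum. Of 8 partners and inhibitors of the bHLH factors, 6 and 8 were called higher in muscle, and the E protein gene *TCF12* averaged 140 CPM there. *TEAD4* and its cofactor *VGLL2* were both called higher in muscle than in either tissue. *PAX3*, *MYF6*, *MEF2A*, *MEF2C*, and the class IIa histone deacetylases are not analysed here.

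The genes around *CDKN1A* did not share its pattern of tissues. Of 11 other cyclin-dependent kinase inhibitors, cyclins, and pocket protein genes, 5 were called higher and 3 lower in muscle than in the cerebrum, and 2 higher and 6 lower than in the liver (medians 0.28 and -0.96). Of all tested genes, 35.9% were called lower in muscle than in the cerebrum and 36.6% lower than in the liver. *CDKN1C*, another inhibitor of the same family, averaged 224 CPM in muscle, 41.2 in the cerebrum, and 257 in the liver.

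The second question was whether maternal nutrient restriction changed the 5 genes. None of the 9 tests that could be made (5 genes in muscle, *MEF2D* and *CDKN1A* in each of the other tissues) was called by edgeR with fetal sex in the model, and the background was 0% of genes called in each tissue. At an unadjusted p under 0.05 there were 2.55% of genes in cerebrum, 24.1% in liver, and 9.91% in muscle, and none of the 9 tests was among them. DESeq2 called 0, 86, and 13 genes in the 3 tissues, again none of the 5. In its account of muscle, the study lists *CDKN1A* as differentially expressed, from an earlier analysis of these animals with another pipeline.

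In muscle, normalized *MYOG* was 55.01, 121, and 157 CPM in CON (lowest, median, highest) and 30.7, 130.0, and 297 CPM in RES. *MYOD1* was 18.5, 24.8, and 40.9 CPM in CON and 9.10, 38.6, and 71.1 CPM in RES, and *MYF5* was 14.3, 22.5, and 32.5 CPM in CON and 5.44, 24.8, and 44.1 CPM in RES. In all 3 genes the RES fetuses enclosed the whole range of CON, with RES 1 and RES 6 highest and RES 25 and RES 70 lowest. *CDKN1A* was 45.2, 86.9, and 122 CPM in CON and 22.5, 93.8, and 239 CPM in RES, with the same fetuses at the ends. *MEF2D* was 17.9, 21.4, and 26.2 CPM in CON and 14.3, 24.8, and 29.7 CPM in RES, again with RES 25 and RES 70 lowest but with RES 55 and RES 6 highest.

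The diet differences in muscle were smaller than this spread. The log2 difference of RES from CON was 0.57 for *MYOG* (95% interval -0.37 to 1.51, adjusted p = 0.658), 0.52 for *MYOD1* (-0.29 to 1.33, adjusted p = 0.643), and 0.49 for *CDKN1A* (-0.46 to 1.44, adjusted p = 0.697). For *MYF5* it was 0.14 (-0.66 to 0.94, adjusted p = 0.908), and for *MEF2D* 0.06 (-0.28 to 0.40, adjusted p = 0.911). With 7 fetuses per diet, the intervals still include a log2 difference of up to 1.51 for *MYOG* and of up to 0.40 for *MEF2D*. Comparing mean log2 CPM without a model, the exact two-sided permutation test gave a difference of 0.27 for *MYOG* (p = 0.611), 0.22 for *MYOD1* (p = 0.642), -0.15 for *MYF5* (p = 0.744), 0.04 for *MEF2D* (p = 0.818), and 0.16 for *CDKN1A* (p = 0.763, n = 7 per diet). For *MYF5* the sign is opposite to that of the fit. Without RES fetus 1 the fitted difference was 0.35 for *MYOG*, 0.31 for *MYOD1*, 0.22 for *CDKN1A*, 0.0094 for *MYF5*, and 0.038 for *MEF2D*, less than before for each. Over the omission of each fetus in turn it ran from 0.35 to 0.85 for *MYOG*, 0.31 to 0.71 for *MYOD1*, and 0.22 to 0.78 for *CDKN1A*, the highest without CON 68 for *MYOG* and *CDKN1A* and without RES 25 for *MYOD1*. It ran from -0.079 to 0.33 for *MYF5* and from -0.018 to 0.15 for *MEF2D*, both below 0 without RES 6.

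**Figure D2:**
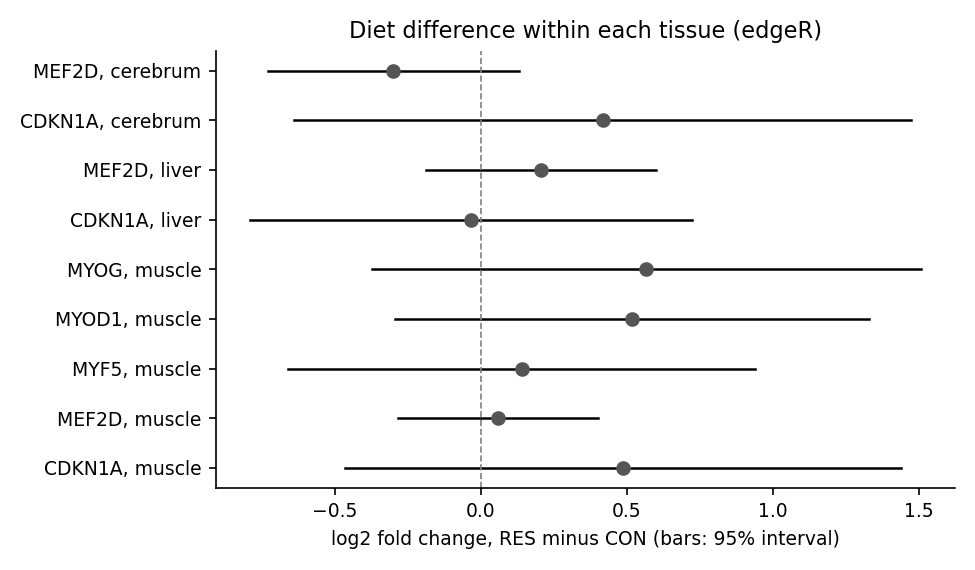
Fitted log2 difference between RES and CON within each tissue (points) with its 95% interval (bars) for the 9 tests of the 5 genes, from edgeR with fetal sex in the model. Every interval crosses 0, and the widest in muscle are those of *MYOG* and *CDKN1A*.

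In the cerebrum *MEF2D* was 8.40, 11.5, and 13.1 CPM in CON and 5.54, 10.01, and 13.9 CPM in RES, with a log2 difference of -0.30 (-0.73 to 0.13, adjusted p = 0.999), and of -0.19 without RES fetus 1. *CDKN1A* was 1.11, 4.43, and 7.63 CPM in CON and 2.09, 3.38, and 18.6 CPM in RES, where the highest was RES 1. Its log2 difference was 0.42 (adjusted p = 0.999) with that fetus and -0.41 (adjusted p = 0.9996) without it, so 1 library set the sign.

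In the liver *MEF2D* was 9.86, 12.5, and 17.3 CPM in CON and 10.3, 12.7, and 20.3 CPM in RES, with a log2 difference of 0.21 (-0.19 to 0.60, adjusted p = 0.457). The highest normalized value, in RES 1, came from 49 counts, the lowest count of the 14 liver libraries. In that library 67.7% of all counts fell on 12 protein-coding genes of the mitochondrial genome, against 4.04% to 44.9% in the other 13, and its normalization factor was 0.189. Without RES fetus 1 the log2 difference of *MEF2D* was 0.10. The part of the mitochondrial share in the *MEF2D* values was not tested. *CDKN1A* was 2.02, 3.91, and 6.65 CPM in CON and 2.07, 2.67, and 6.78 CPM in RES, a log2 difference of -0.03 (-0.79 to 0.72, adjusted p = 0.952), and of 0.048 without RES fetus 1.

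Whether the diet difference of a gene varied among tissues was tested by an interaction over the 42 libraries, in which 0% of the 15972 genes were called by edgeR (5.62% at an unadjusted p under 0.05, and 2 genes by DESeq2's likelihood ratio test). *MYF5* had an unadjusted p of 0.0468 and *MYOG* of 0.0525, with an adjusted p of 0.829 for both. The adjusted p was 0.829 for *MYOD1*, 0.838 for *MEF2D*, and 0.966 for *CDKN1A*. Without RES fetus 1 the adjusted p of the 5 genes was 0.958 or above.

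In muscle the 5 genes varied more among the fetuses of a diet than between the diets. From the lowest to the highest of the 14 libraries, *CDKN1A* differed 10.6-fold, *MYOG* 9.68-fold, *MYF5* 8.12-fold, *MYOD1* 7.82-fold, and *MEF2D* 2.07-fold. Among CON fetuses alone the ratios were 2.69, 2.85, 2.28, 2.22, and 1.47. The SD of log2 CPM was 0.61 in CON and 1.26 in RES for *MYOG*, 0.58 and 1.30 for *CDKN1A*, 0.46 and 1.13 for *MYOD1*, 0.41 and 1.13 for *MYF5*, and 0.21 and 0.40 for *MEF2D*. It was larger in RES for each gene, and this difference in spread was not tested.

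**Figure D3:**
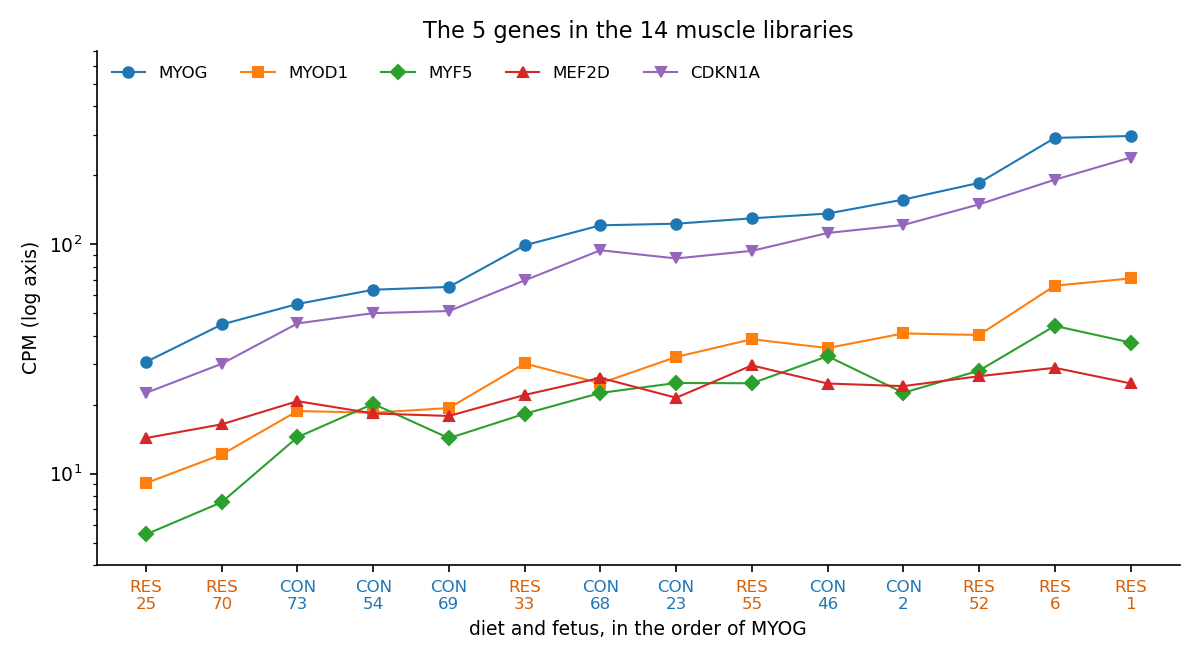
CPM of the 5 genes on a log axis in the 14 muscle libraries, ordered from the lowest to the highest *MYOG* and named by diet and fetus. The lines of *MYOG* and *CDKN1A* run in parallel from RES 25 to RES 1, *MYOD1* and *MYF5* follow with some crossings, and *MEF2D* is the flattest.

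While their levels moved, *MYOG* and *CDKN1A* kept nearly the same proportion in every fetus. For each count of *CDKN1A* there were 1.22 to 1.52 counts of *MYOG* in the 14 libraries (mean 1.33 ± 0.10, SD, n = 14). The ratio of *MYOG* to *MYOD1* counts was 2.93 to 4.89, and that of *MYOG* to *MYF5* was 3.14 to 7.96, with a median of 4.57 in CON and 5.96 in RES. The widest was *MYOG* to *MEF2D*, from 2.15 in RES 25 to 12.0 in RES 1. Transcript lengths were not taken into account, so these ratios compare libraries and not the abundance of one gene with that of another.

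Over the 7 fetuses of a diet, Pearson's r used the variance stabilized (VST) expression that DESeq2 gives on a log2-like scale. Each r has an exact permutation p over the 5040 pairings, adjusted over 27 pairs. Here and below, a p printed after rho in the same brackets is that of r. Spearman's rho was tested likewise on ranks, and its p is given where rho is named as the test. *MYOG* and *CDKN1A* correlated at r = 0.992 in CON (Spearman's rho 0.964, exact p = 0.000595, adjusted 0.0161) and at r = 0.996 in RES (rho 1, exact p = 0.000198, adjusted 0.000893). Without the 2 fetuses farthest from the median of *MYOG*, r was 0.985 and 0.984. *MYOG* and *MYOD1* correlated at 0.940 in CON (rho 0.893, adjusted exact permutation p = 0.0455) and 0.992 in RES (rho 1, adjusted p = 0.000893). Tested by rho, this CON value did not pass (adjusted exact permutation p = 0.0830). *MYOG* and *MYF5* correlated at 0.793 in CON (rho 0.679, adjusted exact permutation p = 0.113) and 0.992 in RES (rho 0.964, adjusted p = 0.00134).

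*MEF2D* was less tightly tied to the others. Its correlation with *MYOG* was 0.761 in CON (rho 0.464, adjusted exact permutation p = 0.130) and 0.870 in RES (rho 0.679, adjusted p = 0.0196). Tested by rho, the RES value did not pass (adjusted exact permutation p = 0.118). In RES the relation rests on the fetuses at the ends, since r was 0.317 without the 2 farthest from the median. For none of the 10 pairs among the 5 genes was the correlation called different between diets. The lowest adjusted p of the exact test over 3432 splits was 0.0574, for *MYOG* with *MYF5*, and the next was 0.0664, for *MYOD1* with *MYF5*. Both passed without RES 1 (adjusted exact permutation p = 0.0472 and 0.0351), the first also without RES 55 (0.0306) and the second without RES 52 (0.0450). By Spearman's rho *MYOD1* with *CDKN1A* passed (adjusted exact permutation p = 0.0399), with no other pair among the 5 genes. Since its rho in RES was 1, the end of the scale, the size of this difference is not measured.

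Downstream genes moved along with the group in muscle. The summed level of the 18 contractile and fibre genes ran from 2199 CPM in RES 25 to 18117 CPM in RES 6 (CON 3562 to 9514 CPM), and that of the 9 fusion and endplate genes from 209.6 CPM in RES 25 to 1768 CPM in RES 1. Per 100 CPM of contractile genes there were 1.32 to 1.93 CPM of *MYOG* and 1.02 to 1.48 CPM of *CDKN1A*, but 0.148 to 0.664 CPM of *MEF2D*. All 18 contractile and all 9 fusion genes were highest in RES 1 or RES 6 and lowest in RES 25 or RES 70, as were 8.45% of the 14717 genes that passed the filter both in muscle and over all tissues. These 4 fetuses were singled out by the levels of the 5 genes themselves. The pattern held for 2 of the 7 upstream regulators and for 1 of the 11 other cell cycle genes.

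**Figure D4:**
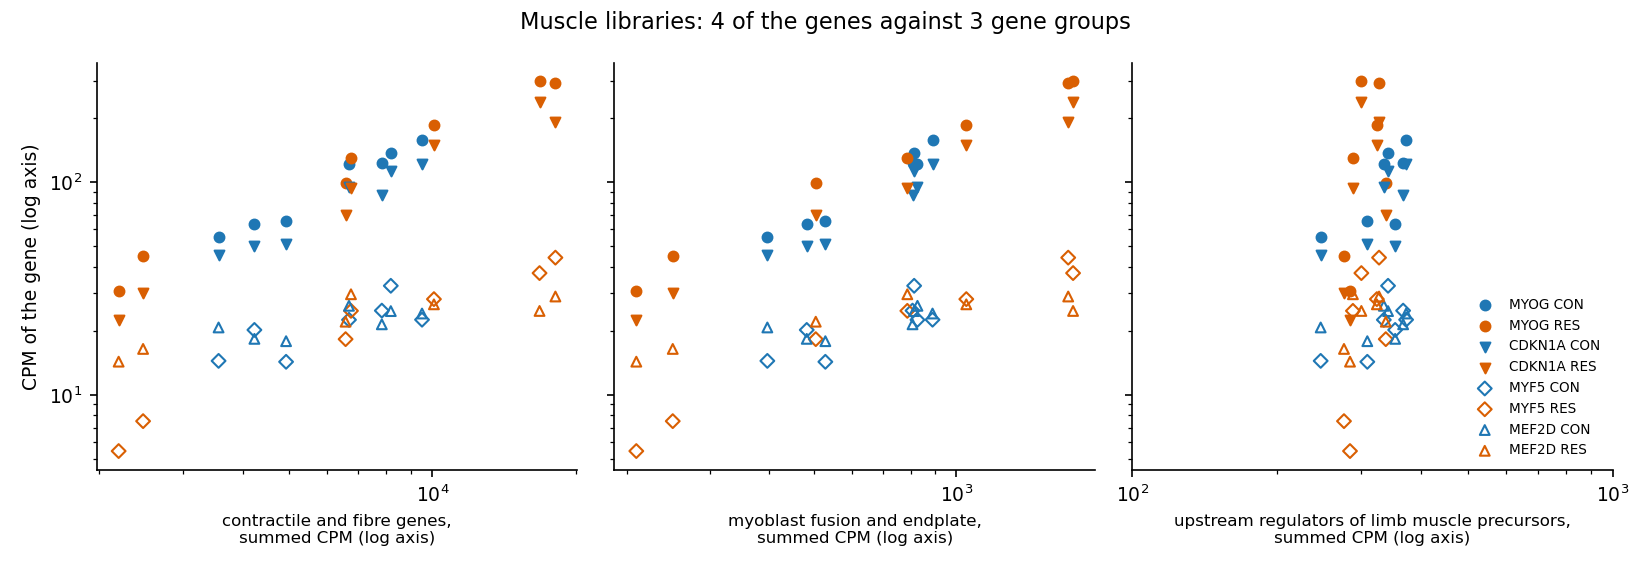
CPM of *MYOG*, *CDKN1A* (filled), *MYF5*, and *MEF2D* (open) against the summed CPM of 3 gene groups in the 14 muscle libraries, all axes logarithmic, blue for CON and orange for RES. *MYOG* and *CDKN1A* follow the contractile and the fusion genes over the whole range, whereas the upstream regulators stay between 247 and 372 CPM in all libraries.

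Other cell types of the limb also differed among these libraries. The 2 Schwann cell markers summed to 245 CPM in RES 1 and 226 CPM in RES 6, the 2 highest of the 14, and to 37.3 CPM in RES 25, the lowest, with *ERBB3* the more abundant. The 3 cartilage markers ran the other way, at 35.7 CPM in RES 1, 49.5 CPM in RES 6, and 203 CPM in RES 25, *COL9A1* being the most abundant. RES 70 held 91.0 CPM of them, within the CON range of 68.8 to 98.2 CPM. The 3 limb mesenchyme markers summed to 253 CPM in RES 1, 235 CPM in RES 6, 328 CPM in RES 25, and 357 CPM in RES 70 (CON 194 to 390 CPM). RES 70 had the highest epidermis sum (183 CPM, highest of the others 84.0, mostly *KRT15*) and smooth muscle sum (140 CPM, 66.2, mostly *ACTG2*). It also had the highest hepatocyte sum (47.3 CPM, 31.5) and erythroid sum (101 CPM, 91.2), and 2 of its 3 limb mesenchyme markers were above the other 13 libraries. In CON 73 all 5 neuron markers were above the other 13 libraries (sum 1698 CPM, 393 CPM in RES 1, and 21.3 to 70.4 CPM in the other 12, mostly *STMN2*). The part of these markers in the levels of the 5 genes was not tested. Without CON 73 the fitted diet difference was 0.46 for *MYOG* and 0.38 for *CDKN1A* in muscle, on the same side of the test.

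The gene lists gave no call between diets in muscle either, beside the 0% of all genes. Estimates lay above 0 (higher in RES) for 18 of 18 contractile genes (median log2 difference 0.53) and 9 of 9 fusion genes (0.42), as they did for all 5 regulators, and for 3 of 7 upstream regulators (-0.07), with a median of -0.01 over all tested genes. For *MYF5* and *MEF2D* the sign was not firm, since without RES 6 the estimates were -0.079 and -0.018. The largest estimates among the contractile and fusion genes were those of *MYMX*, a fusion peptide gene (0.82 ± 0.54), and *TNNC2*, a fast troponin gene (0.77 ± 0.50). Estimates were also above 0 for 7 of 8 bHLH partners and inhibitors (0.13) and 7 of 11 cell cycle genes (0.12). The 2 epidermis markers had a median of 0.79, and the 5 neuron markers, of which CON 73 held most, had a median of -1.32, with none called. The endothelium marker *TEK* had an estimate of -0.35, and the 3 tendon markers had a median of -0.30, with 2 below 0 and 1 above. *TEK* and 1 tendon marker had an unadjusted edgeR p under 0.05, beside 9.91% of all genes, and none was called. The median over libraries of the summed neuron markers lay the other way, at 31.6 CPM in CON and 39.3 CPM in RES.

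Among 4673 genes with a symbol that passed the filter in muscle, the genes most like each of the 5 were named by Pearson's r of log2 CPM over the 14 libraries, as a description. For *MYOG* these were *CDKN1A* (0.994), the sarcoglycan gene *SGCA* (0.993), *HJV* (0.990), *VGLL2* (0.988), and *MSC* (0.988), which encodes a bHLH repressor. For *CDKN1A* they were *MYOG*, *SGCA* (0.989), the sarcolipin gene *SLN* (0.988), *CHRNA1* (0.988), and the myosin chaperone gene *UNC45B* (0.986). *MYOG* was the gene nearest to *CDKN1A*, and *CDKN1A* the nearest to *MYOG*.

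*MYOD1* was most like *SMTNL1* (0.983), *SLC8A3* (0.982), *MYOG* (0.982), *ACTC1* (0.981), and *VGLL2* (0.980). *MYF5* was most like *RTL1* (0.975), *TRIM55* (0.968), *CAP2* (0.966), *TXLNB* (0.964), and *TTYH2* (0.962). *MEF2D* had lower values and other neighbours, *PARM1* (0.921), *WDR44* (0.918), *LARP4B* (0.912), *KSR1* (0.912), and *PLXNA2* (0.901). The most opposite gene was *ANO10* for *MYOG* (-0.948), *MYOD1* (-0.935), *MYF5* (-0.918), and *CDKN1A* (-0.9496). All of these correlations share the same 14 libraries, with RES 1, RES 6, RES 25, and RES 70 at the ends.

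The third question was whether the 5 genes were coordinated differently with transcription regulators in the 2 diets. The study named *ZBTB33* and *ZNF131*, zinc finger factors of the BTB family, and *SMAD4*, the common mediator of TGF-beta and BMP signals, beside the myogenic factors from these same libraries, so the tests here are not independent evidence. The correlation differed between diets in 13 of the 15 pairs of the 5 genes with these 3 regulators, at an adjusted p under 0.05 of the exact permutation test, which corresponded to an unadjusted p of 0.0163 or less. At that unadjusted p, the correlation with *ZBTB33* differed for 14.1% of all genes tested in muscle (4 of the 5 genes), that with *ZNF131* for 10.7% (5 of the 5), and that with *SMAD4* for 9.55% (4 of the 5). The 2 pairs that did not pass were *MEF2D* with *ZBTB33* (adjusted p = 0.0511) and *MEF2D* with *SMAD4* (adjusted p = 0.132). The test exchanges values centred within diets, so it takes their spread to be the same in both diets. The SD of VST values was 0.51 in CON and 1.08 in RES for *MYOG*, and 0.065 and 0.197 for *ZNF131*. A difference in spread was not separated from one in correlation, so these p-values are approximate.

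In each of the 13 pairs r was above 0 in CON and below 0 in RES. By Pearson's r, the negative correlation in RES passed its own test in all 13 (adjusted exact permutation p of 0.0203 or less). The positive one in CON passed in only 2, *MYOG* and *CDKN1A* with *ZBTB33*, with an adjusted p of 0.116 or more in the other 11. By rho, *MEF2D* with *ZNF131* did not pass in RES (adjusted exact permutation p = 0.118), and in CON only *CDKN1A* with *ZBTB33* passed (0.0375). For *MYOG* with *ZBTB33* r was 0.949 in CON (rho 0.893, adjusted exact permutation p = 0.0295) and -0.909 in RES (rho -0.964, adjusted p = 0.00914), with an adjusted p of 0.00629 for the difference. Without the 2 fetuses farthest from the median of *MYOG* the values were 0.894 and -0.932. For *MYOG* with *ZNF131* it was 0.642 in CON (rho 0.571, adjusted exact permutation p = 0.181) and -0.995 in RES (rho -1, adjusted p = 0.000893), with an adjusted p of 0.00629 for the difference, and in CON the value was 0.154 without the 2 farthest fetuses.

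*CDKN1A* gave nearly the same figures as *MYOG*, with 0.945 and -0.917 for *ZBTB33* (difference adjusted exact permutation p = 0.00629), 0.663 and -0.990 for *ZNF131* (0.0105), and 0.665 and -0.938 for *SMAD4* (0.0157). In CON its value with *ZNF131* was 0.237 without the 2 farthest fetuses. For *MYOG* with *SMAD4* the values were 0.726 and -0.932 (difference adjusted exact permutation p = 0.0157). *MYOD1* and *MYF5* had -0.988 and -0.981 with *ZNF131* in RES, against 0.451 and 0.652 in CON (both differences adjusted p = 0.00629 in the exact test). *MEF2D* with *ZNF131* had 0.628 and -0.857 (adjusted p = 0.0294), but in RES -0.233 without the 2 farthest fetuses. Since the levels of *MYOG*, *MYOD1*, *MYF5*, and *CDKN1A* moved together, these pairs are not separate observations.

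The partners themselves moved little. Over the 14 muscle libraries *ZBTB33* spanned 22.8 to 35.3 CPM, *ZNF131* 42.0 to 67.1 CPM, and *SMAD4* 88.5 to 125 CPM. On the VST scale the range in RES was 2.74 for *MYOG*, 0.44 for *ZBTB33*, 0.54 for *ZNF131*, and 0.41 for *SMAD4*. In CON the ranges were 1.24, 0.27, 0.16, and 0.32. The log2 difference between diets was 0.06 for *ZBTB33*, 0.04 for *ZNF131*, and 0.01 for *SMAD4*, none of them called. Within RES, each regulator was highest in the fetuses with the lowest *MYOG*, RES 25 and RES 70, and lowest in those with the highest, RES 1 and RES 6.

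**Figure D5:**
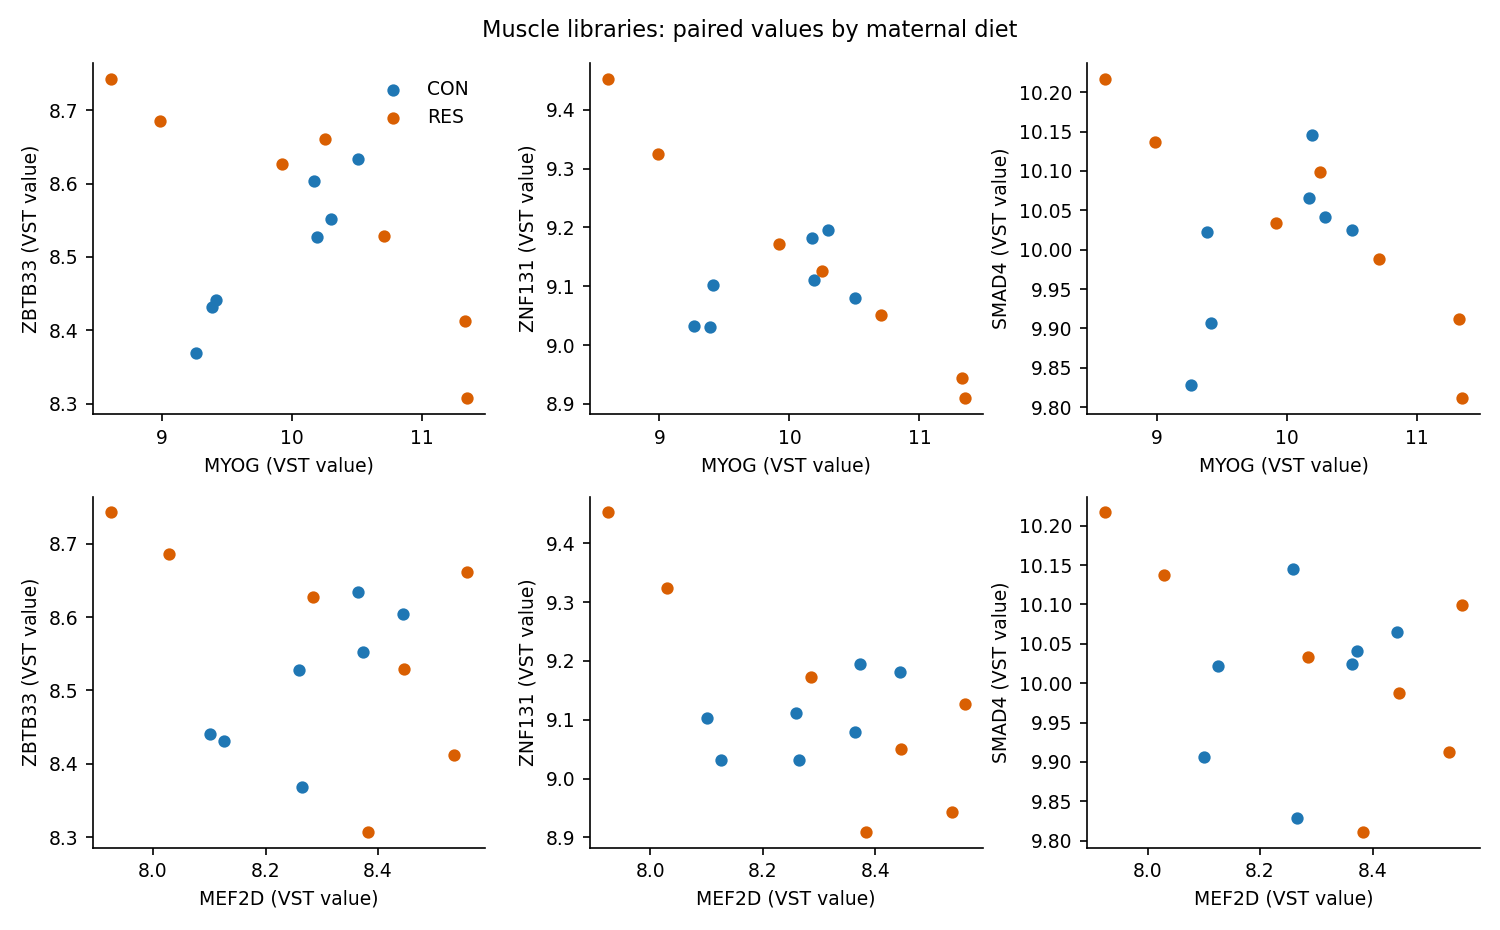
Values of *MYOG* (top) and *MEF2D* (bottom) against *ZBTB33*, *ZNF131*, and *SMAD4* in the muscle libraries of 7 CON and 7 RES fetuses, on the VST scale. In CON the points rise with *MYOG* and in RES they fall, and 5 of the RES fetuses lie beyond the CON range of *MYOG*.

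Some of these 13 calls depended on single fetuses. When 1 fetus was left out of the 14 at a time, 8 to 15 of the 15 pairs with *ZBTB33*, *ZNF131*, and *SMAD4* were called. The low count came without RES 6, when the pairs of *MYOG* with *SMAD4* (adjusted exact permutation p = 0.0524), *MYOD1* with *ZBTB33* (0.0603), *MYOD1* with *SMAD4* (0.0586), *MYF5* with *ZBTB33* (0.0629), and *MYF5* with *SMAD4* (0.0551) no longer passed. *MEF2D* with *ZNF131* lost its call without CON 46 (adjusted exact permutation p = 0.0692), CON 68 (0.0798), RES 25 (0.134), or RES 70 (0.0850), and by Spearman's rho (0.0944). *MYF5* with *ZBTB33* also lost it without RES 52 (0.0511). Without RES 1, 14 were called, and without CON 73, 14.

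In the liver *MEF2D* was paired with *TGFB1*, a growth factor gene, and *HDAC8*, a histone deacetylase gene, both named by the study from these libraries. *MEF2D* with *TGFB1* had r = 0.298 in CON (rho 0.0357, adjusted exact permutation p = 0.541) and 0.962 in RES (rho 0.750, adjusted p = 0.00679), with an adjusted p of 0.0175 for the difference. Tested by rho, this RES value did not pass (adjusted exact permutation p = 0.0852). *MEF2D* with *HDAC8* had -0.279 in CON (rho -0.107, adjusted exact permutation p = 0.541) and 0.951 in RES (rho 0.893, adjusted p = 0.00292), with an adjusted p of 0.0258 for the difference. Without the 2 farthest fetuses the sign of r in CON turned, to -0.494 with *TGFB1* and 0.426 with *HDAC8*. In RES those values were 0.891 and 0.751. At the same unadjusted p as in muscle, the correlation with *TGFB1* differed for 21.3% of all genes tested in the liver and that with *HDAC8* for 16.3%. In RES all 3 genes were highest in fetus 1, next in fetus 6, and then in fetus 33. These fetuses also had the highest mitochondrial shares of RES, 67.7%, 35.6%, and 30.5%, and the part of that share in the correlations was not tested. Neither pair was called without RES 1 (adjusted exact permutation p = 0.0676 and 0.0787), without RES 6 (0.0639 and 0.0629), on sex-adjusted values (0.104 and 0.132), or by Spearman's rho (0.282 and 0.144). *MEF2D* with *TGFB1* was also lost without CON 68 (adjusted exact permutation p = 0.0871), and *MEF2D* with *HDAC8* without CON 54 (0.105).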

How the data were processed

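From 42 strand-specific libraries, the authors processed the reads with CASAVA and FastQC 0.11.8 (submitters' processing notes), mapped them to ARS-UCD 1.2 with STAR 2.7.3a and Ensembl release 100, and deposited raw counts per gene. Which strand column of the counter was kept is not given in the sources used here. Symbols came from the study's supplementary tables, which cover 5128 of 22664 genes.

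Genes with CPM below 1 in at least 80% of libraries were left out (15151, 13527, and 14947 genes were kept in the cerebrum, liver, and muscle, and 15972 over all tissues). Diets were compared within each tissue with edgeR 4.0.16 (quasi-likelihood test, TMM factors, fetal sex as covariate), and tissues and the diet by tissue interaction over all libraries, with Benjamini-Hochberg adjustment and calls at 0.05. CPM in the text uses factors over all 42 libraries, and the diet fits, permutation tests of diet, SDs of log2 CPM in muscle, VST, and likeness use those of one tissue. VST and alternatives used DESeq2 1.42.0, and R was 4.3.3. Permutations enumerated all 5040 pairings or 3432 splits, two-sided, for which the smallest p of a split is 0.000583. For differences of correlation the splits used values centred within diets, and exact there means only that all splits were enumerated. Intervals of pooled levels cover counting error only (95%, exact). A count of 0 was bounded by 3 counts over the group.

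The fetus number in the labels ties the 3 libraries of an animal, which gives the pairing across tissues, and a fit with the fetus as block was an alternative. Other alternatives were DESeq2, its size factors, no sex covariate, no or a stricter filter, other prior counts, log2 CPM, Spearman's rho, sex-adjusted values, and leaving out each fetus. Pooled levels with raw or normalized library totals, values without RES fetus 1, and the regulator correlations of all tested genes were added after seeing the data. The members, pairs, marker lists, and pathway lists were chosen with earlier results of these data known. Named besides the 5 genes are their pair partners, in each list up to 4 genes (2 of highest level, 2 of largest diet difference in muscle) and others of the lists where a role is described, and the 5 most and 3 least similar genes. Promoter sequences were not analysed here, and some genes that this rule names are not reported here.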

Additional observations from a re-analysis of the deposited data

Results flagged for a closer look

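Log2 CPM of the 5 genes was examined in each of 30 groups of 7 libraries for a highest or lowest value far from the rest by Dixon's test, which flags about 1 in 20 groups by chance. That rate holds for groups of continuous values, and of the 30 groups, 4 had 0 counts in all libraries, which leaves no range to test, and 8 had counts in 1 to 3 libraries. A library stood apart in 4 groups. Of these, 3 were the cerebrum library of RES fetus 1, in which *MYOG* was 2.66 (49 counts, nearest library -0.85), *CDKN1A* was 4.23 (148 counts, nearest 1.88), and *MYF5* was 0.039 (7 counts, nearest -1.67). In the same library the summed contractile, tendon, smooth muscle, epidermis, and hepatocyte (mostly *TTR*) markers were above the other 13 cerebrum libraries. So were the sums of other lists, such as the limb mesenchyme and erythroid markers. Its mitochondrial share (14.7%) was also the highest of the cerebrum libraries. The part of these markers and of that share in these values was not tested. In the fourth, *MYOG* in the liver of CON fetus 73 was -1.66, which is 1 count where the other 6 CON libraries held 0, a difference of 1 count. No gene of the 5 was called in the diet by tissue interaction.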

How the results depend on the processing

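For muscle against the cerebrum and against the liver, each of the 5 genes kept its call and direction under every alternative that tested it, leave-one-out included (*MYOG*, *MYOD1*, and *MYF5* did not pass the stricter filter), and none was called between diets or in the interaction under any. Since *MYOG*, *MYOD1*, and *MYF5* entered the comparison of tissues through muscle alone, their kept calls support nothing further. Genes called between diets by DESeq2 were 86 in the liver and 13 in muscle, and 2 for the interaction by its likelihood ratio test, against 0 by edgeR for each. With the fetus as replicate block 10888, 13157, and 13437 genes differed for muscle against cerebrum, muscle against liver, and liver against cerebrum, beside 10879, 13105, and 13360, with 0 for the interaction, and this pairing changed no call of the 5 genes. For the diet difference of *MYF5* in muscle the permutation test gave -0.15, against the edgeR estimate of 0.14. Leaving out 1 fetus at a time, the log2 diet difference ran from -0.079 to 0.33 for *MYF5* in muscle, -0.018 to 0.15 for *MEF2D* in muscle (both below 0 without RES 6), -0.41 to 0.59 for *CDKN1A* in the cerebrum, and -0.29 to 0.14 for *CDKN1A* in the liver, and the difference of the liver from the cerebrum from -0.47 to 0.10 for *CDKN1A*. For liver against cerebrum, *MEF2D* had an adjusted p of 0.0551 with a stricter filter, and *MYOD1* had 0.251 by DESeq2 and above 0.05 without CON 23, RES 1, RES 6, or RES 52. The count of pairs whose correlation differed between diets was 15 of 27, with 13 by Spearman's rho and 14 on sex-adjusted values, and 8 (without RES 6) to 18 leaving out 1 fetus. Over these omissions, the RES minus CON difference of Fisher-transformed r ran from -0.45 to 0.69 for *MYOG* with *CDKN1A*, -0.16 to 1.30 for *MYOD1* with *CDKN1A*, -0.042 to 0.88 for *MYOG* with *MEF2D*, and -0.22 to 0.63 for *MEF2D* with *CDKN1A*. The cause of these changes was not tested. The levels of *MYOG*, *MYOD1*, and *MYF5* outside muscle depend on the prior count, since nearly all libraries there held 0 to 3 counts.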
